A study of Rattus norvegicus with 12 samples.

Results

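The miR-344 family is a set of microRNAs (miRNAs) whose annotated hairpin genes lie in a run on rat chromosome 1, with other genes between some of them. Its members were all names in the small RNA tables that start with rno-miR-344 followed by a letter or hyphen: miR-344a-3p, miR-344a-5p, miR-344b-1-3p, miR-344b-3p, miR-344b-5p, miR-344g and miR-344i, 7 of 805 small RNA names and 7 of 685 miRNA names. Names alone chose the members, but the family was selected on measured values: it was already known that the fold change of miR-344b-1-3p was positive and its adjusted p under 0.05 in shStau2 against shNTC and against shPum2, in fits that compared libraries of the same replicate number. All values of the members in the comparisons that contain shStau2 are therefore a description and support nothing further. Whether the fits called a member in these comparisons is reported as part of that description. The comparison of shPum2 with shNTC was not one of those that led to the choice, and it was tested for the other members. For miR-344b-1-3p it stays a description, since the libraries of both groups entered the choice.

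The libraries came from primary cortical neurons of Sprague Dawley rats, prepared at embryonic day 17. Every culture was transduced with lentivirus on day 10 in vitro and harvested on day 14. The vector expressed a short hairpin RNA (shRNA) against Stau2 (shStau2), which encodes the double-stranded RNA-binding protein Staufen2, an shRNA against Pum2 (shPum2), which encodes the mRNA-binding protein Pumilio 2, or a non-targeting control shRNA (shNTC). Each group had 4 libraries, numbered 1 to 4. ShPum2 was included by the study as a second control, for effects of an active shRNA as such. Small RNA counts hold no mRNA, so how far Stau2 or Pum2 was depleted was not analysed here.

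A miRNA is cut from a hairpin precursor by Drosha and Dicer. The hairpin leaves a strand from its left arm (5p) and a strand from its right arm (3p), and either can be loaded into an Argonaute protein, where bases 2 to 8 of the strand, the seed, pair with target mRNAs. A change inside the seed changes which mRNAs are matched, whereas strands that share a seed can match the same sites. The miR-344 names are known from rat and mouse, and their expression has been described in brain. In the RefSeq annotation of rat assembly GRCr8 the family had 7 hairpin genes, all on the minus strand of chromosome 1. Mir344b-2, Mir344b-1 and Mir344b-3 followed each other with 0 genes between. After 5 other genes came Mir344a-2, Mir344-1, Mir344g and Mir344i, with 0 protein-coding genes anywhere in the run. The next protein-coding gene after Mir344i, with 3 genes between, was Ndn, followed by Magel2, a pair of paternally expressed genes of the imprinted region whose human counterpart is lost in Prader-Willi syndrome. The submitters' processing notes name an older build, Rnor 6.0, so no positions are given from GRCr8.

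The mature sequences, from RefSeq on GRCr8, are shown because the members differ where targets are read. A name matched for 6 of the 7 members, all but miR-344a-3p. Capitals mark the seed, bases 2 to 8 counted from the 5′ end.
miR-344b-1-3p: gAUAUAACcaaagcccgacugu
miR-344b-3p: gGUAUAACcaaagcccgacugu
miR-344b-5p: aGUCAGGCugcugguuauauuc
miR-344g: aGUCAGGCuccuggcaggaguc
miR-344a-5p: uCAGGCUCcuggcuagauu
miR-344i: cUCUAGCCagggcuugacugca

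The miR-344b 3p strands differed at 1 of 22 bases, A2G from miR-344b-1-3p to miR-344b-3p, and this base lies in the seed. The 6 sequences thus held 5 seeds, and only miR-344b-5p and miR-344g, both from the 5p arm, had the same one. MiR-344a-5p matched miR-344b-5p at 16 of 19 aligned bases but began 2 bases further in, so its seed was shifted. MiR-344i came from a 3p arm and matched miR-344b-1-3p at 13 of 21 aligned bases. The seed of miR-344b-1-3p was also that of miR-410-3p, a miRNA of the imprinted Dlk1-Dio3 cluster, and the seed of miR-344a-5p was also that of miR-484. They are shown for that match, with the seed in capitals.
miR-410-3p: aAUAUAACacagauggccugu
miR-484: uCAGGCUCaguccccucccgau

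The 3 miR-344b hairpins yield the same 5p strand. MiR-344b-3p is the 3p strand of Mir344b-2 and Mir344b-3, whose 71 bases were identical, and miR-344b-1-3p is that of Mir344b-1 alone. Over those 71 bases Mir344b-1 differed from Mir344b-2 by a single substitution, G48A with positions counted from the 5′ end of Mir344b-2, which is the same base as position 2 of the 3p strand. The hairpins are shown with the mature strands in capitals.
Mir344b-1: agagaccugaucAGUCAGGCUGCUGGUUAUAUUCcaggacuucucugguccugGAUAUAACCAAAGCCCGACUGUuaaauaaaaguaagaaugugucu
Mir344b-2: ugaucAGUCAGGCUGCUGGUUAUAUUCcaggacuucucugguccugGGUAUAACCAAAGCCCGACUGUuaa
A read of either 3p strand can be told from the other only by that base, so the separate values of the 2 names depend on how the authors assigned reads with a mismatch or a trimmed 5′ end. The count of miR-344b-5p cannot be divided among its 3 hairpins.

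Levels are counts per 1000000 miRNA counts (CPM) after scaling by the trimmed mean of M-values (TMM). They are shares of a library: fewer cells of a type and less RNA per cell cannot be told apart. A read spans a whole miRNA, so the counts need no scaling by length, but adapter ligation depends on sequence, so levels of different names compare counts and not molecules. Total counts lay between 3836349 and 5415763 per library, and the 7 members together took 0.0424 to 0.0515% of the miRNA counts. MiR-128-3p, known from mature neurons, had a mean of 95100 CPM in shStau2, 90000 in shPum2 and 88700 in shNTC. For miR-9a-5p of the neural lineage it was 190000, 191000 and 189000 CPM in the same order. These levels alone do not give the share of neurons in the cultures, and markers of other cells are given below.

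Over the 12 libraries the members were ordered miR-344a-3p (346 ± 23.1 CPM, SD, n = 12), miR-344b-1-3p (55 ± 10.8), miR-344b-5p (49.6 ± 3.32), miR-344b-3p (11 ± 2.11), miR-344i (4.75 ± 1.45), miR-344g (2.43 ± 0.671) and miR-344a-5p (1.89 ± 0.568). The ranges of miR-344b-1-3p (43.5 to 77.1 CPM) and miR-344b-5p (44.9 to 57.1) overlapped, and so did those of miR-344b-3p (6.49 to 13.8) and miR-344i (2.48 to 7.48) and those of miR-344i, miR-344g and miR-344a-5p. Within libraries, however, miR-344b-3p was above miR-344i in 12 of 12 and miR-344i above miR-344g in 11 of 12. MiR-344b-1-3p was above miR-344b-5p in 7 of 12 libraries and miR-344g above miR-344a-5p in 9 of 12, so the order of these neighbours varied between libraries. The range of miR-344a-3p lay above all others, and those of miR-344b-1-3p and miR-344b-5p lay above all names after them. The most abundant member ranked 126 of 685 miRNA names by mean level, and miR-344b-1-3p ranked 286. MiR-344a-5p did not pass the filter on low counts, so 6 of 7 members were tested, and it is given as values only.

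**Figure D1:**
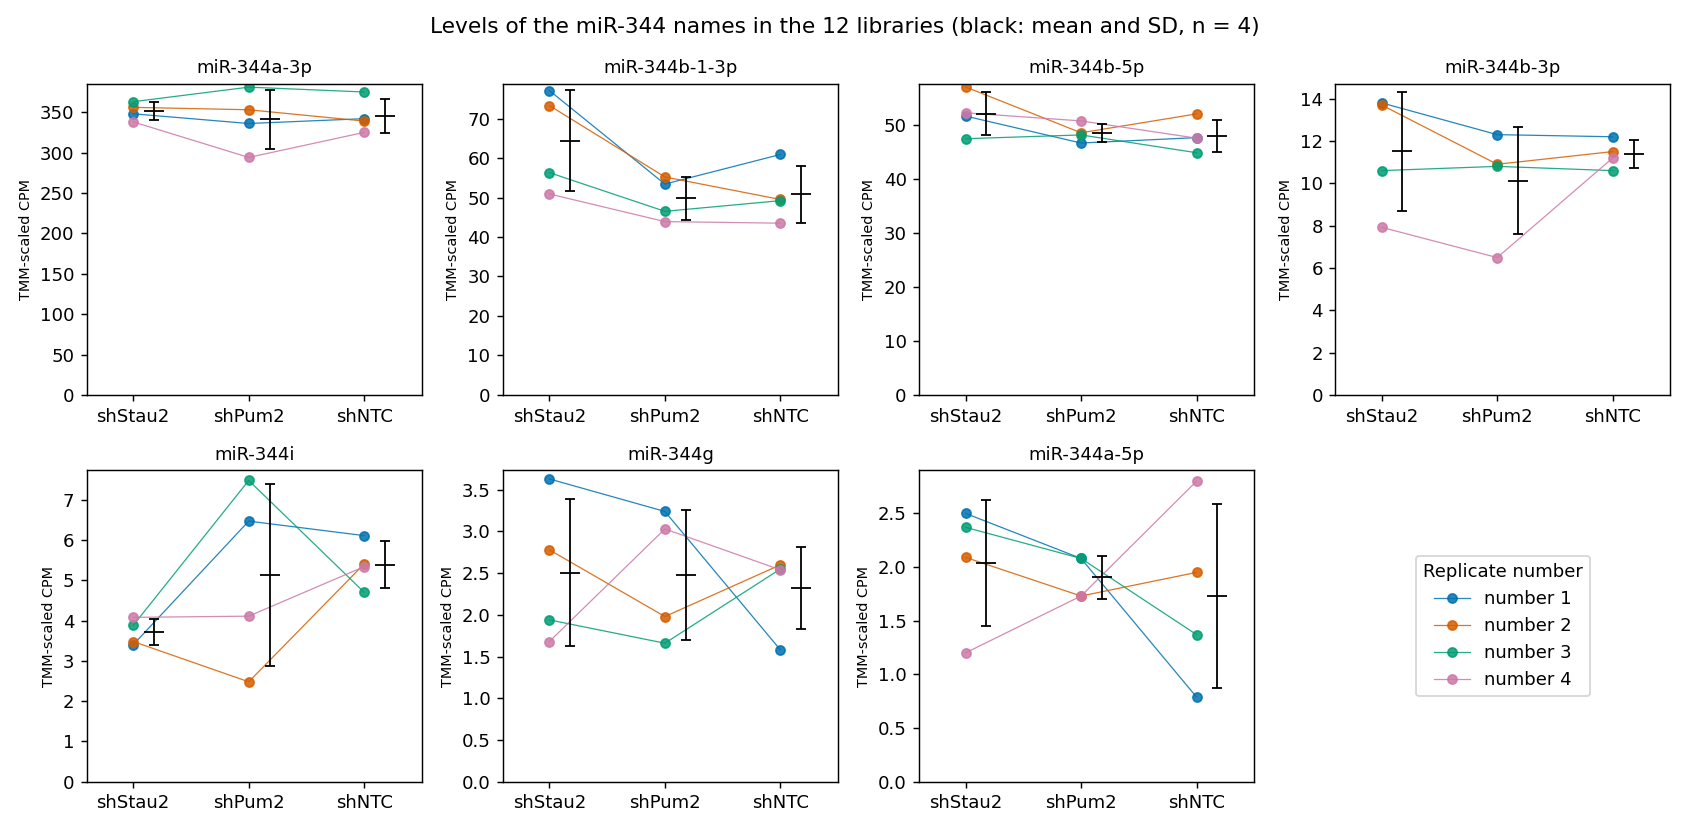
TMM-scaled CPM of each miR-344 name (vertical axis, from 0) in shStau2, shPum2 and shNTC; points are libraries, coloured lines join libraries of the same replicate number, and black bars are the mean and SD of 4 libraries. MiR-344a-3p lies between 294 and 381 CPM in all groups, while the 4 lines of miR-344b-1-3p all descend from shStau2 to both other groups.

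MiR-344b-1-3p, the 3p strand of Mir344b-1, was the member whose higher values in shStau2 led to the choice of the family. It had 77.1, 73.3, 56.3 and 50.9 CPM in shStau2 replicates 1 to 4, against 53.4, 55.2, 46.5 and 43.9 CPM in shPum2 and 60.9, 49.5, 49.2 and 43.5 CPM in shNTC. The shStau2 libraries overlapped both other groups, but within each number the shStau2 library was the highest of the 3. In counts, the group sums were 1129 in shStau2, 881 in shPum2 and 960 in shNTC. The log2 fold change of shStau2 against shNTC was 0.34 (SE 0.15), and it was 0.33 (SE 0.09) in the fit with the replicate number as a block. Between libraries of the same number the log2 difference lay between 0.2 and 0.56, higher in 4 of 4 pairs. Against shPum2 the log2 fold change was 0.37 (SE 0.15), and 0.36 (SE 0.10) with the block, higher in 4 of 4 pairs by 0.21 to 0.53. These comparisons share the shStau2 libraries.

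Numbers 1 and 2 were above numbers 3 and 4 for miR-344b-1-3p in shStau2, shPum2 and shNTC alike. Averaged over the groups it had 63.8, 59.4, 50.7 and 46.1 CPM for numbers 1 to 4. Of the sum of squares of its log2(CPM + 1) values, 49.5% lay between numbers, 41.3% between groups and 9.15% in neither, where the medians over the 628 miRNAs tested were 44.4%, 16.6% and 32%. The family was picked on the group differences of this strand, so these shares beside the medians are a description only. The numbers pair the libraries across the whole table, and taking that spread out narrowed the SE of miR-344b-1-3p and left its fold change nearly in place.

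Adjusted over all miRNAs tested, edgeR's quasi-likelihood test without the block called 0 of the 6 members at an adjusted p of 0.05 in shStau2 against shNTC, where it called 0.318% of the 628 miRNAs. With the block it called 1 of 6, miR-344b-1-3p, where it called 6.21% of all miRNAs, 2.39% as higher. In shStau2 against shPum2 the counts were 0 of 6 without the block (0.478% of all miRNAs) and 1 of 6 with it, again miR-344b-1-3p (3.98% of all miRNAs, 1.59% as higher). Nothing is read from these counts, since the call of miR-344b-1-3p was known when the family was picked. The call ended in every fit with the block that left out 1 of the 4 replicate numbers, in both comparisons. It also ended in DESeq2 with the block and in the block fit scaled to library totals.

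MiR-344b-3p, which differs from miR-344b-1-3p at the seed base given above, had 13.8, 13.7, 10.6 and 7.92 CPM in shStau2 replicates 1 to 4, against 12.3, 10.9, 10.8 and 6.49 CPM in shPum2 and 12.2, 11.5, 10.6 and 11.2 CPM in shNTC. The groups overlapped throughout, and the lowest values were those of number 4 in shStau2 and shPum2. Its log2 fold change was 0.02 (SE 0.21) in shStau2 against shNTC and 0.19 (SE 0.21) against shPum2, higher in 2 and 3 of 4 pairs. The value against shPum2 lay between 0.02 and 0.33 when single libraries or replicate numbers were left out. With 30 to 62 counts per library its SE exceeded that of miR-344b-1-3p, and its interval against shNTC, -0.39 to 0.43, contains the 0.34 of miR-344b-1-3p.

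The share of miR-344b-1-3p among the counts of both miR-344b 3p names needs no scaling between libraries. It was looked at after the counts and sequences had been seen. It was 84.8, 84.3, 84.2 and 86.5% in shStau2 replicates 1 to 4, 81.3, 83.5, 81.2 and 87.1% in shPum2, and 83.3, 81.2, 82.3 and 79.5% in shNTC. The shStau2 libraries did not overlap the shNTC libraries, but did overlap those of shPum2, whose replicate 4 was the highest of all. The mean share was 84.9 ± 1.09% in shStau2, 83.3 ± 2.78% in shPum2 and 81.6 ± 1.61% in shNTC (SD, n = 4). The shNTC library with the lowest share had 171 of 215 counts, with an exact Clopper-Pearson 95% interval of 73.5 to 84.7%, and shStau2 replicate 3 had 261 of 310 counts, with an interval of 79.6 to 88.1%. The intervals of these libraries overlapped, and they cover counting error only.

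MiR-344b-5p, the strand shared by the 3 miR-344b hairpins, had 51.7, 57.1, 47.5 and 52.3 CPM in shStau2 replicates 1 to 4, against 46.7, 48.6, 48.2 and 50.8 CPM in shPum2 and 47.7, 52.1, 44.9 and 47.6 CPM in shNTC. The groups overlapped, and the shStau2 library was the higher in 4 of 4 pairs with shNTC, by 0.08 to 0.14 on the log2 scale, and in 3 of 4 pairs with shPum2. The log2 fold change was 0.12 (SE 0.11) against shNTC and 0.10 (SE 0.11) against shPum2. Unlike for miR-344b-1-3p, numbers 1 and 2 were not above numbers 3 and 4 in every group: number 2 was highest in shStau2 and shNTC, and number 4 in shPum2. Of the sum of squares of miR-344b-5p, 44.2% lay between numbers and 32.2% between groups, where the medians over the miRNAs tested were 44.4% and 16.6%. The variance of miR-344b-5p within groups was 0.83 times that of counting alone (Poisson), where the ratio was 6.16 for miR-344b-1-3p and the median over the miRNAs tested was 4.34. The spread of miR-344b-5p thus did not exceed counting error, so no effect of the number is read from its share.

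**Figure D2:**
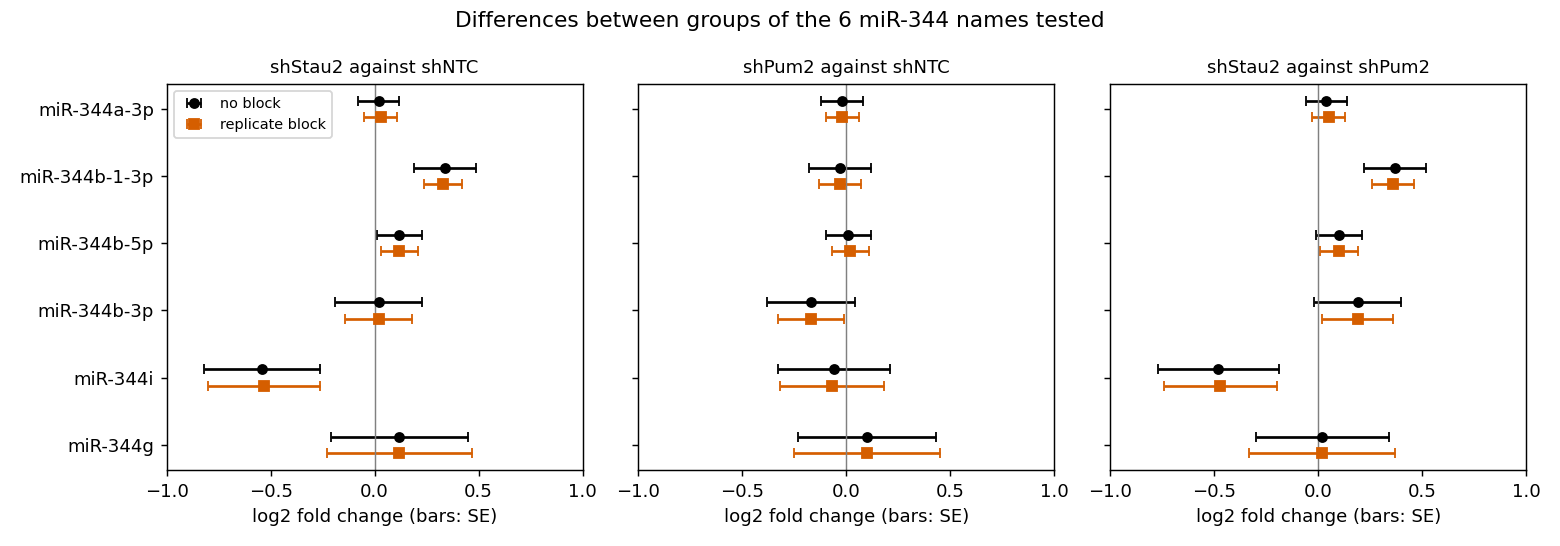
Log2 fold changes (horizontal axis, bars SE) of the 6 names tested in each comparison, without a block (black circles) and with the replicate number as a block (orange squares). MiR-344b-1-3p lies at 0.34 and 0.37 in the comparisons with shStau2 and at -0.03 in shPum2 against shNTC, and miR-344i lies at -0.54 and -0.48 with wider bars.

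MiR-344i, a 3p strand of the gene nearest to Ndn, was the only member with a lower mean in shStau2 than in both other groups. It had 3.4, 3.48, 3.88 and 4.08 CPM in shStau2 replicates 1 to 4, against 6.47, 2.48, 7.48 and 4.11 CPM in shPum2 and 6.11, 5.41, 4.7 and 5.34 CPM in shNTC. The shStau2 libraries were all below the shNTC libraries, while the shPum2 libraries held both the lowest and the highest values. It was the only 1 of the 6 members tested whose groups did not overlap in shStau2 against shNTC, where 9.55% of the 628 miRNAs did not. The groups of all 6 overlapped in shPum2 against shNTC (1.11% of all miRNAs did not) and in shStau2 against shPum2 (4.94% did not). The log2 fold change was -0.54 (SE 0.28) against shNTC and -0.48 (SE 0.29) against shPum2, and it was not called with or without the block. Single libraries moved the value against shPum2, to -0.24 without shPum2 replicate 3 and to -0.72 without shPum2 replicate 2. The group sums were 65 counts in shStau2 (exact Poisson 95% interval 50.2 to 82.8), 93 in shPum2 (75.1 to 114) and 101 in shNTC (82.3 to 123).

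MiR-344a-3p, the most abundant member, differed between groups by less than the spread between replicates. It had 348, 356, 363 and 338 CPM in shStau2 replicates 1 to 4, against 336, 353, 381 and 294 CPM in shPum2 and 342, 339, 375 and 325 CPM in shNTC. Number 3 was highest and number 4 lowest in every group, an order unlike that of miR-344b-1-3p. The log2 fold change was 0.02 (SE 0.10) in shStau2 against shNTC, with an approximate 95% interval of -0.17 to 0.21, and 0.04 (SE 0.10) against shPum2, with an interval of -0.15 to 0.23. Its share of the sum of squares between groups was 4.37%.

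The remaining members were near the limit of counting. MiR-344g, a 5p strand with the seed of miR-344b-5p, had 7 to 16 counts in the shStau2 libraries, 8 to 14 in shPum2 and 8 to 13 in shNTC, with means of 2.51 ± 0.884, 2.48 ± 0.772 and 2.32 ± 0.494 CPM in that order. MiR-344a-5p had 5 to 11 counts in shStau2, 7 to 10 in shPum2 and 4 to 11 in shNTC. The groups overlapped for both, and their variance within groups was 0.989 and 0.904 times that of counting alone. The level of miR-344a-5p was not tested, and no difference between groups is read from counts this low for either name.

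Of the 6 members tested, 5 had a positive log2 fold change in shStau2 against shNTC and 5 in shStau2 against shPum2, with medians of 0.07 in each, where the medians over all 628 miRNAs were 0 and 0.01. MiR-344b-1-3p is among the 5, and its sign was known when the family was picked. The comparisons also share the shStau2 libraries, so no common direction of the family is read from these counts. In the plot of all miRNAs tested, miR-344b-1-3p lay among the called increases and the other members among the uncalled miRNAs of like level.

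**Figure D3:**
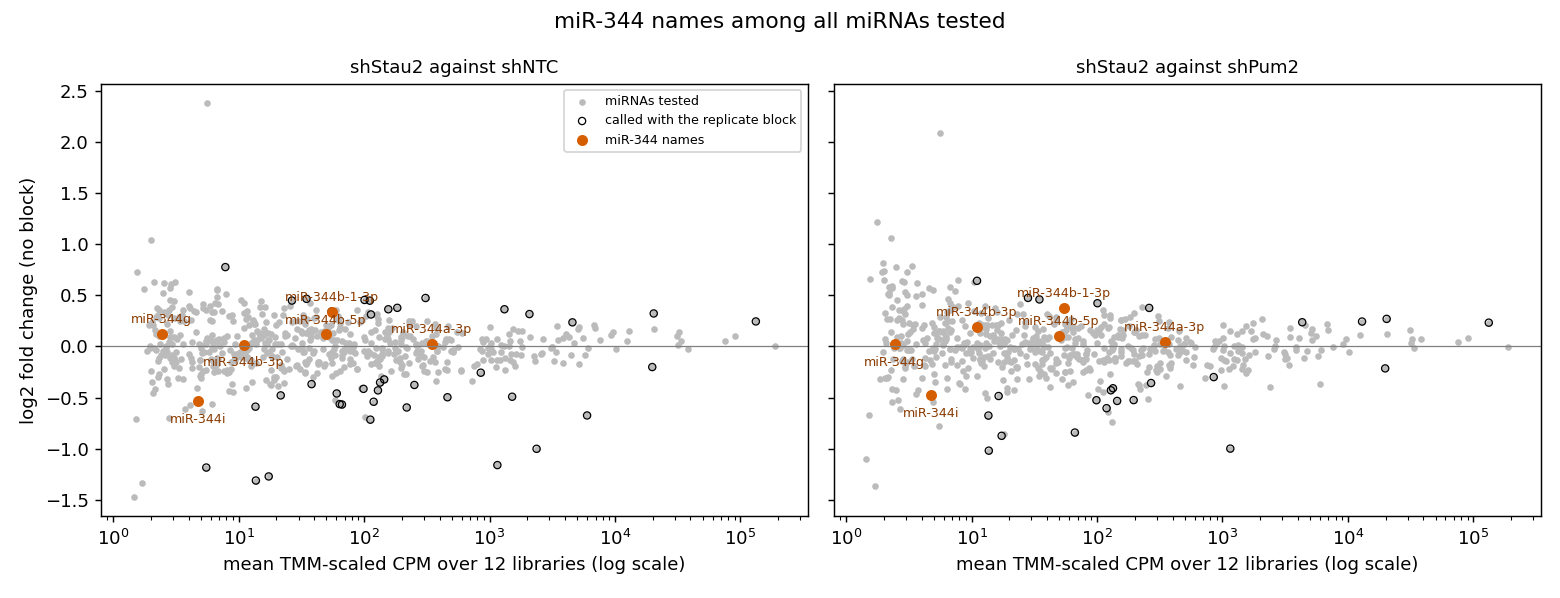
Log2 fold change without a block (vertical axis) against mean TMM-scaled CPM (log axis) for the 628 miRNAs tested, in shStau2 against shNTC (left) and against shPum2 (right). Orange points are the 6 miR-344 names tested and black rings are the miRNAs called with the replicate block, 39 on the left and 25 on the right, with miR-344b-1-3p among them on both sides.

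The comparison of shPum2 with shNTC holds the effect of an active shRNA and that of any loss of Pum2, which it cannot tell apart. Here the members other than miR-344b-1-3p were tested. With edgeR's quasi-likelihood test 0 of these 5 members passed in shPum2 against shNTC, without the block (0% of the 628 miRNAs were called) and with it (0.159%). The adjusted p was 0.982 for each of the 5 without the block, and DESeq2 called 0 of them with or without the block. Over all miRNAs 9 had an unadjusted p under 0.05, and none of these was a member. For miR-344b-1-3p the log2 fold change was -0.03 (SE 0.15), with an approximate 95% interval of -0.33 to 0.27, given as a description. It was 0.01 (SE 0.11) for miR-344b-5p and -0.02 (SE 0.10) for miR-344a-3p. MiR-344b-3p had -0.17 (SE 0.21), miR-344i -0.06 (SE 0.27) and miR-344g 0.10 (SE 0.33). The sign of each of these turned when single libraries were left out, except for miR-344b-3p, whose value was -0.01 without shPum2 replicate 4.

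The share of counts on the 5p name differed between miR-344a and miR-344b in every library. MiR-344a-3p is set against miR-344a-5p by name alone, without a hairpin sequence for it, and the 5p strand of Mir344-1 starts with the same 19 bases as miR-344a-5p. The miR-344a share depends on this assignment. The 5p strand made up 0.575 ± 0.157% of the counts of both miR-344a arms in shStau2, 0.558 ± 0.0548% in shPum2 and 0.505 ± 0.272% in shNTC (SD, n = 4). For miR-344b, with its 3p names added up, the 5p strand made up 41.1 ± 4.54% in shStau2, 44.9 ± 3.94% in shPum2 and 43.7 ± 3.27% in shNTC. Over single libraries the 5p share lay between 36.2 and 50.2% for miR-344b and between 0.23 and 0.854% for miR-344a, with no overlap. The shNTC library with the lowest miR-344a share had 4 of 1739 counts on the 5p strand, with an exact Clopper-Pearson 95% interval of 0.0627 to 0.588%.

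The miR-344a share of shPum2 and shNTC did not differ detectably. The exact two-sided permutation test gave p = 0.771, with adjusted p = 0.771 over the 3 shares examined and a smallest possible p of 0.0286 for 4 libraries against 4. It exchanged libraries freely between the groups, so it did not use the pairing by replicate number. Within numbers, the shPum2 share was the higher in 2 of 4 pairs. The shares that hold counts of miR-344b-1-3p are a description: shPum2 minus shNTC was 1.2 percentage points for the 5p share of miR-344b and 1.7 points for the share of miR-344b-1-3p among the miR-344b 3p names. In shStau2 the 5p share of miR-344b was below that of the same number in 3 of 4 pairs with shNTC and in 4 of 4 pairs with shPum2, by means of -2.63 and -3.83 percentage points. Single libraries moved these means: against shNTC to -1 without shStau2 replicate 1 and to -4.62 without shStau2 replicate 4, and against shPum2 to -2.07 without shPum2 replicate 4 and to -5.82 without shStau2 replicate 4. The counts of miR-344b-1-3p are part of this share, so it is not independent of the values of that strand given above.

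**Figure D4:**
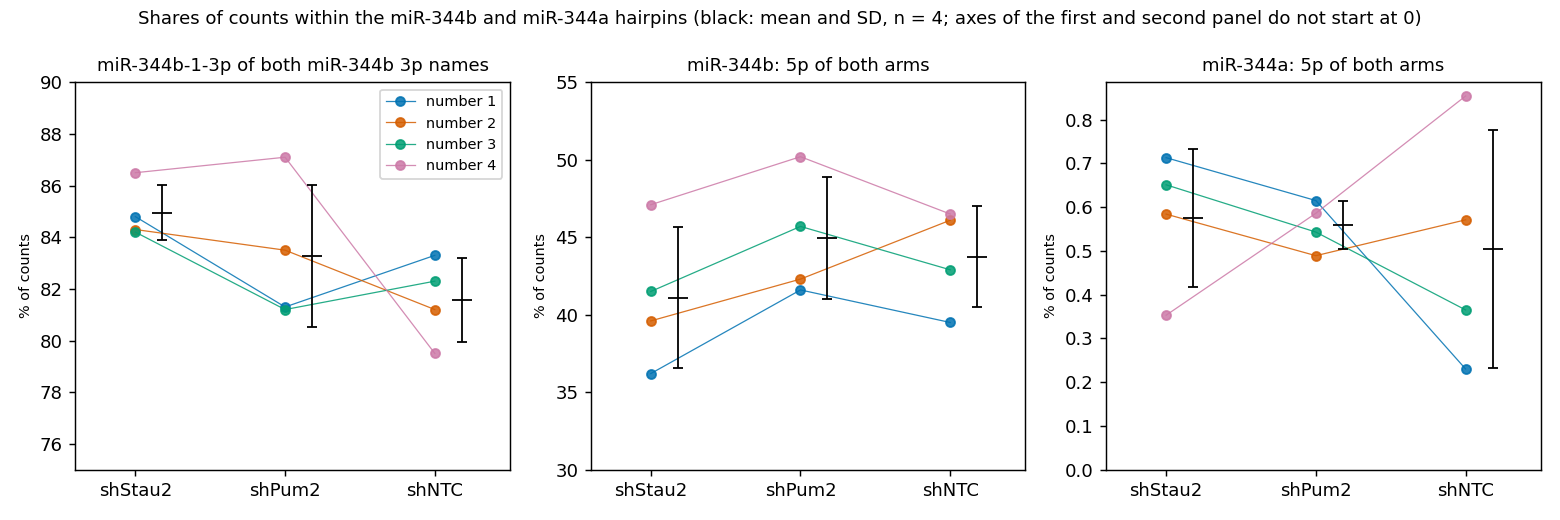
Shares of counts (vertical axis, %) per library: miR-344b-1-3p of both miR-344b 3p names (left, axis from 75%), the 5p strand of both miR-344b arms (middle, axis from 30%) and the 5p strand of both miR-344a arms (right, axis from 0). Lines join libraries of the same number, and black bars are the mean and SD of 4 libraries; the 4 shStau2 points on the left, 84.2 to 86.5%, lie above the 4 shNTC points, 79.5 to 83.3%.

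The other miRNA with the seed of miR-344b-1-3p had values on the opposite side. MiR-410-3p had 18.4, 18.3, 15.8 and 18.5 CPM in shStau2 replicates 1 to 4, against 19.6, 22.8, 23.9 and 17.5 CPM in shPum2 and 24.2, 21.6, 19.6 and 27.7 CPM in shNTC. The shStau2 libraries were all below those of shNTC and overlapped those of shPum2. The log2 fold change was -0.39 (SE 0.15) against shNTC and -0.24 (SE 0.15) against shPum2, neither past the threshold in edgeR's test (adjusted p = 0.294 and 0.599, and 0.118 and 0.354 with the block). Of the CPM of both miRNAs with this seed, miR-344b-1-3p made up 73.4 to 80.8% in shStau2, 66.1 to 73.1% in shPum2 and 61.1 to 71.5% in shNTC, a description that holds the values of miR-344b-1-3p again. MiR-484, with the seed of miR-344a-5p, averaged 40.1 ± 5.97 CPM in shStau2, 37.8 ± 6.6 in shPum2 and 35.6 ± 4.04 in shNTC, and did not pass (adjusted p = 0.737 in shStau2 against shNTC in edgeR's test).

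Across the 12 libraries the correlation with miR-344b-1-3p differed between members. The Pearson correlation of log2(CPM + 1) was 0.67 between miR-344b-1-3p and miR-344b-3p, 0.47 between miR-344b-1-3p and miR-344b-5p, 0.29 between miR-344b-1-3p and miR-344a-3p and -0.43 between miR-344b-1-3p and miR-344i. The libraries share replicate numbers and groups, so these values describe the 12 libraries. Each value holds miR-344b-1-3p, whose group differences led to the choice of the family. Counting error also lowers r for names with few counts, such as miR-344i with 10 to 36 per library. Whether the family moves together is therefore not read from them. Among 444 miRNAs outside the family with a mean of at least 10 CPM, the 5 most like miR-344b-1-3p were miR-31a-5p (r = 0.88), miR-339-3p (0.85), miR-434-3p (0.84), miR-485-5p (0.84) and miR-339-5p (0.81). MiR-434-3p and miR-485-5p come from the Dlk1-Dio3 cluster. With the mean of each replicate number taken out, r was 0.71 to 0.79 for these 5. The 5 most like miR-344a-3p were miR-99a-3p, miR-3559-5p, let-7i-3p, miR-499-5p and let-7f-5p, at r = 0.80 to 0.81, and their r fell to between 0.30 and 0.48 with the number means taken out.

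Lists of miRNAs of known cell types and of the imprinted Gnas locus were set beside the family, chosen with earlier results of these data known. Of 14 neuron-enriched miRNAs, 0 passed in shStau2 against shNTC, whether or not edgeR's fit held the block, with a median log2 fold change of 0.03. The 4 strands from the imprinted Gnas locus had a median of 0.36. Of them, 0 passed without the block and 3 rose with it, in the fit that called 2.39% of all miRNAs as higher. The most abundant of these, miR-298-5p, averaged 1460 CPM in shStau2, 1350 in shPum2 and 1140 in shNTC, followed by miR-296-3p with 365, 298 and 263 CPM. In the comparison of shStau2 with shPum2, 1 neuron-enriched miRNA rose with the block, where 1.59% of all miRNAs were called as higher, and 0 Gnas strands were called.

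Markers of other cells were counted in the same libraries, and edgeR's fit without the block called 0 of them in any comparison. The summed level of 6 astrocyte or proliferation-linked miRNAs, led by miR-21-5p and miR-24-3p, was 4830 to 6170 CPM in the shStau2 libraries, 5730 to 7640 in shPum2 and 7050 to 9650 in shNTC, so the shStau2 libraries lay below all shNTC libraries. With the block 4 of the 6 fell in shStau2 against shNTC, where 6.21% of all miRNAs were called. In shStau2 against shPum2 0 fell (3.98% of all miRNAs were called), and in shPum2 against shNTC 1 fell (0.159%). Of 7 blood or microglia miRNAs listed, 6 were in the counts, led by miR-155-5p and miR-146a-5p. Their summed level was 129 to 262 CPM in shStau2, 216 to 327 in shPum2 and 194 to 384 in shNTC, with overlapping ranges. Of the 4 tested, 1 fell against shNTC and 2 against shPum2 with the block, in fits that called 6.21% and 3.98% of all miRNAs in either direction. The red-cell miR-451-5p had 0 counts in all 4 shStau2 libraries, 0 to 6 in shPum2 and 0 to 17 in shNTC, did not pass the filter and was not tested. For 6 vessel or mesenchyme miRNAs, led by miR-126a-3p and miR-143-3p, the summed level was 558 to 801, 621 to 1070 and 646 to 963 CPM in that order, and 1 fell in shStau2 against shNTC with the block. MiR-143-3p is in this list and in that of astrocytes. For 3 oligodendrocyte miRNAs, led by miR-338-3p and miR-219a-5p, it was 252 to 278, 233 to 406 and 219 to 336 CPM, and 0 were called with the block. The part of these differences in the values of miR-344b-1-3p and miR-344i was not tested.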

How the data were processed

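Small RNA was counted in 12 libraries. The deposited values are whole-number counts per small RNA name, 1 table per library, not normalised by the authors. The library kit attaches unique molecular identifiers, per the labels' protocols. The submitters' processing notes name the build Rnor 6.0. What the sources used here do not give is the aligner, the counter and whether identifiers were collapsed. Clopper-Pearson and Poisson intervals cover counting error only, while those of fold changes come from the fitted SE and hold the spread between libraries.

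For the 685 miRNA names edgeR 4.0.16 was used (R 4.3.3; TMM scaling, filterByExpr by group, robust quasi-likelihood test, all 12 libraries in a joint fit). The filter left 628. P-values were two-sided and Benjamini-Hochberg adjusted over them. SE is the log2 fold change over the root of the F statistic. The method was tested on simulated data whose changes were larger than the fold changes of the members. Alternatives were a replicate block, DESeq2 1.42.0, other scaling, no filter, fewer libraries and added piRNAs.

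Deviations from group means correlated between libraries of the same number (r = 0.34 to 0.57 for 12 pairs, -0.39 to 0.12 for 36 others), so the numbers pair the libraries. The labels call the libraries biological replicates without saying whether they came from separate preparations, so p-values measure the spread between these libraries.

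Members, lists and tests were chosen with earlier results of these data known. Every member is named. Outside the family, the rule named the 5 miRNAs most correlated with miR-344b-1-3p and with the most abundant member, those that share a seed, and the 2 most abundant of each list. MiR-451-5p was named after its values were seen.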

Additional observations from a re-analysis of the deposited data

Results flagged for a closer look

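MiR-344g in shNTC replicate 1 had 1.58 CPM, while the other 3 shNTC libraries lay between 2.54 and 2.6 CPM. The gap was 0.95 of the whole range of the group, above the limit of Dixon's test for 4 values. The library had 8 counts of this name. It was the only 1 flagged of 30 groups of values examined (7 members and 3 shares in 3 groups), where chance flags about 1 in 20.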

How the results depend on the processing

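The replicate block changed the count of members called, to 1 in shStau2 against shNTC and to 1 in shStau2 against shPum2, where it was 0 in each without it. With the block and upper-quartile factors it was 1 in each as well. Over all miRNAs the block gave 39 calls against 2, and 25 against 3, in these comparisons, and 1 against 0 in shPum2 against shNTC. Under every other alternative the count of members called was 0 in all 3 comparisons, and no other call on a member changed. The fold change of miR-344b-1-3p was positive in all 27 settings, between 0.24 and 0.44 against shNTC and between 0.27 and 0.47 against shPum2, and it was called in 2 of the 27. These settings refit the same libraries, and the sign was known when the family was picked, so its constancy supports nothing further. In shPum2 against shNTC the small differences turned sign when libraries were left out: the fold change lay between -0.08 and 0.04 for miR-344a-3p, -0.10 and 0.07 for miR-344b-1-3p, -0.02 and 0.07 for miR-344b-5p, -0.05 and 0.26 for miR-344g and -0.30 and 0.17 for miR-344i. With the block, leaving out a replicate number gave -0.03 to 0.02, -0.07 to 0.04, -0.01 to 0.07, -0.19 to 0.33 and -0.37 to 0.18 for the same names. MiR-344b-3p kept its sign in all of these fits, between -0.27 and -0.01. With upper-quartile factors it was -0.01 for miR-344b-5p, with or without the block. The arm share of shPum2 minus shNTC lay between -0.551 and 2.33 percentage points for miR-344b and between -0.0383 and 0.17 for miR-344a. The cause was not tested. A minimum of 20 counts over both arms removed no library. Counts of 4 to 36 per library limit miR-344a-5p, miR-344g and miR-344i.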
